A study of Mus musculus with 24 samples.

Results

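Cdkn1a, Gdf15, Psrc1, Eda2r, Mdm2, Ccng1, Phlda3, Trp53inp1, Bax and Sesn2 are 10 genes known as transcriptional targets of p53, and their levels were read in mouse lung late after irradiation. They were taken by name: every probe that was not a control and carried 1 of these 10 symbols was used, which gave 18 probes on 45 spots. All 10 were above background on all 24 arrays and were tested together with the rest of the array, where 20409 of 27401 genes passed the filter on dim probes. Lung was shock-frozen 24 days after irradiation, and total RNA of 2 biological replicates in each of 12 groups was hybridised to one-colour arrays. The unirradiated mice received no drug (untreated), a single drug (Imatinib, Ly or Su), or Ly joined with Imatinib or with Su (Ly+Imatinib, Ly+Su). The irradiated groups are the same 6 arms after irradiation: IR without drug, IR+Imatinib, IR+Ly, IR+Su, and the combinations IR+Ly+Imatinib and IR+Ly+Su. By its title the study asked whether blocking TGFβ and PDGF signals together limits fibrosis of the irradiated lung. Imatinib inhibits the ABL, KIT and PDGF receptor kinases, while Ly and Su are given in the labels by these short names alone, without doses. The labels name no strain, sex, age or radiation dose, so what the groups share beyond the lung and the day of sampling is not described here.

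p53 is a transcription factor that is stabilised when DNA is damaged and then switches on genes that halt the cell cycle, repair DNA, change metabolism or start apoptosis. Some of its targets feed back on it: Mdm2 is the ubiquitin ligase that marks p53 for destruction, and Ccng1 (cyclin G1) and Phlda3, an inhibitor of AKT, are further parts of the network. In irradiated tissue these genes are known as early responders, and some of them stay high for a long time in cells that have stopped dividing.

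Levels are log2 intensities of a probe minus the log2 of the array's 75th percentile, so 0 is the 75th percentile of that array and a difference of 1 is a doubling relative to it. The 75th percentile itself was 704 to 1768 intensity units on 23 arrays and 2518 on the first IR array (IR 1), and 62.0% to 78.5% of spots were above background. IR 1 stood apart for the genes described here as well, as the highest of the 24 arrays in 10 of 10 genes, so calls among the 10 genes that rest on IR are given with and without it. The first Ly+Imatinib array was the lowest of the 12 unirradiated arrays in 7 of the 10. The shares of all genes that were highest or lowest on these arrays are not given here. The arrays lay on 6 slides of 4, and each slide carried lungs of 1 irradiation status, so slide and irradiation cannot be told apart. The second IR+Su sample is numbered 2 in its title and 1 in its source name, and the title was used. With 2 arrays a group, p-values measure the spread between these samples only, and in whole lung a lower share of a cell type cannot be told apart from less RNA per cell. Markers of lung epithelium were above background on all 24 arrays for 9 of 9 genes.

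Some of the 10 genes carry sequences of the p53 recognition type close to their start. Promoters in RefSeq (GRCm38.p6) were matched for 9 of the 10 genes, 12 promoters in all, and the 250 bases before each start were searched on both strands for the p53 decamer, the repeated unit of p53 response elements. This decamer occurred in 4 member promoters and in 2341 of 32851 promoters, 7.13%. A pair of decamers with 0 to 13 bases between them occurred in 1 member promoter, that of Cdkn1a, and in 0.0639% of all promoters. A pair without a gap and with up to 3 mismatches occurred in Cdkn1a and Ccng1 and in 1.14% of all promoters. The mismatches had to lie outside 4 core bases of the pair, the C and G at the centre of each decamer. The stretches with matches are shown because their genes are the cell cycle, feedback and apoptosis members described next. Sequences run 5′ to 3′ on the strand of the gene, capitals mark the decamers and, in Cdkn1a and Ccng1, also the gapless pair with mismatches, and a match is a description of letters, not evidence of binding.
Cdkn1a, chr17:29090886-29090967, plus strand, -93 to -12 from the start: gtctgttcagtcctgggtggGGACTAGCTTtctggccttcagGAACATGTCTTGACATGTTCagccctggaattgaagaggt
Ccng1, chr11:40755442-40755501, minus strand, -215 to -156: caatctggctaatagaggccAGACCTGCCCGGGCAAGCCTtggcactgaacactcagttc
Mdm2, chr10:117710915-117710964, minus strand, -206 to -157: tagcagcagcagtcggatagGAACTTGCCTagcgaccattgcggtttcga
Bax, chr7:45467070-45467119, minus strand, -221 to -172: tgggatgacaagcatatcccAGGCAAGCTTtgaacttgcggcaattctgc
Phlda3, Psrc1, Sesn2, Gdf15 and Eda2r had no decamer in this window, which says only that these letters are not there. Trp53inp1 was not searched.

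Cdkn1a (chr17:29090979-29100722, GRCm38.p6) encodes p21, the inhibitor of cyclin-dependent kinases through which p53 halts the cell cycle. The 12 unirradiated arrays lay between -0.49 and 1.28 with a median of 0.86. Among irradiated lungs its level was 3.09 and 2.29 in IR, 1.59 and 2.41 in IR+Ly, 1.51 and 2.23 in IR+Imatinib, 1.92 and 1.72 in IR+Ly+Imatinib, 1.04 and 1.41 in IR+Ly+Su, and 1.09 and 0.98 in IR+Su. Thus 9 of the 12 irradiated arrays were above every unirradiated array, and the 3 that were not came from the arms with Su. Averaged over the 6 arms Cdkn1a was 2.09-fold higher after irradiation (log2 difference 1.06 ± 0.14 SE, limma adjusted p = 0.000138).

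Psrc1 (chr3:108383804-108388231), a microtubule-binding protein of the mitotic spindle, separated the lungs completely. Its 12 unirradiated arrays ran from -1.90 to -0.99 (median -1.59) and its 12 irradiated arrays from -0.85 to 1.26 (median 0.06). IR arrays read 1.26 and 0.50, IR+Ly -0.21 and 0.46, IR+Imatinib -0.24 and 0.66, IR+Ly+Imatinib 0.47 and 0.32, IR+Ly+Su -0.85 and -0.19, and IR+Su -0.78 and -0.53. Of the 4 irradiated arrays with Su, 3 were the lowest of the 12, and the 2 arrays with Su but no irradiation, at -0.99 and -1.07, were the highest of the unirradiated ones. The averaged difference was 1.59 ± 0.13 (3.02-fold, adjusted p = 2.19e-06). Its 2 other probes gave averaged differences of 1.48 and 1.62.

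Gdf15 (chr8:70629393-70632470) encodes a secreted cytokine of the TGFβ superfamily that many stressed tissues release. Unirradiated arrays lay between -1.93 and -0.67 with a median of -1.15. After irradiation the level was 1.66 and 1.42 in IR, 0.40 and 0.79 in IR+Ly, 0.46 and 0.81 in IR+Imatinib, 0.50 and 1.20 in IR+Ly+Imatinib, -0.25 and 0.30 in IR+Ly+Su, and -0.52 and -0.25 in IR+Su. The 2 sets of 12 arrays did not overlap, and the IR arrays were the 2 highest. Gdf15 had the largest averaged difference of the 10 genes, 1.72 ± 0.12 (3.29-fold, adjusted p = 5.9e-07), which ranked 54 among the 20409 genes tested.

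Eda2r (chrX:97333837-97377234) encodes a receptor of the TNF receptor family that binds the A2 form of ectodysplasin. Its unirradiated arrays lay between -4.90 and -3.78 (median -3.94). The irradiated arrays read -1.57 and -2.41 in IR, -2.60 and -2.51 in IR+Ly, -2.87 and -2.08 in IR+Imatinib, -2.55 and -2.49 in IR+Ly+Imatinib, -3.15 and -2.94 in IR+Ly+Su, and -3.38 and -3.47 in IR+Su. Here too the 12 irradiated arrays were all above the 12 others, by 1.39 ± 0.14 on average (2.62-fold, adjusted p = 1.13e-05). This call depended on the background correction: the gene is dim, and with normexp, which models the background of each array and under which the median of all genes was -0.14, the averaged difference was 0.38 (adjusted p = 0.282). Another Eda2r probe was above background on 6 of the 24 arrays and a further one on 0, so neither gives a fold.

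**Figure D1:**
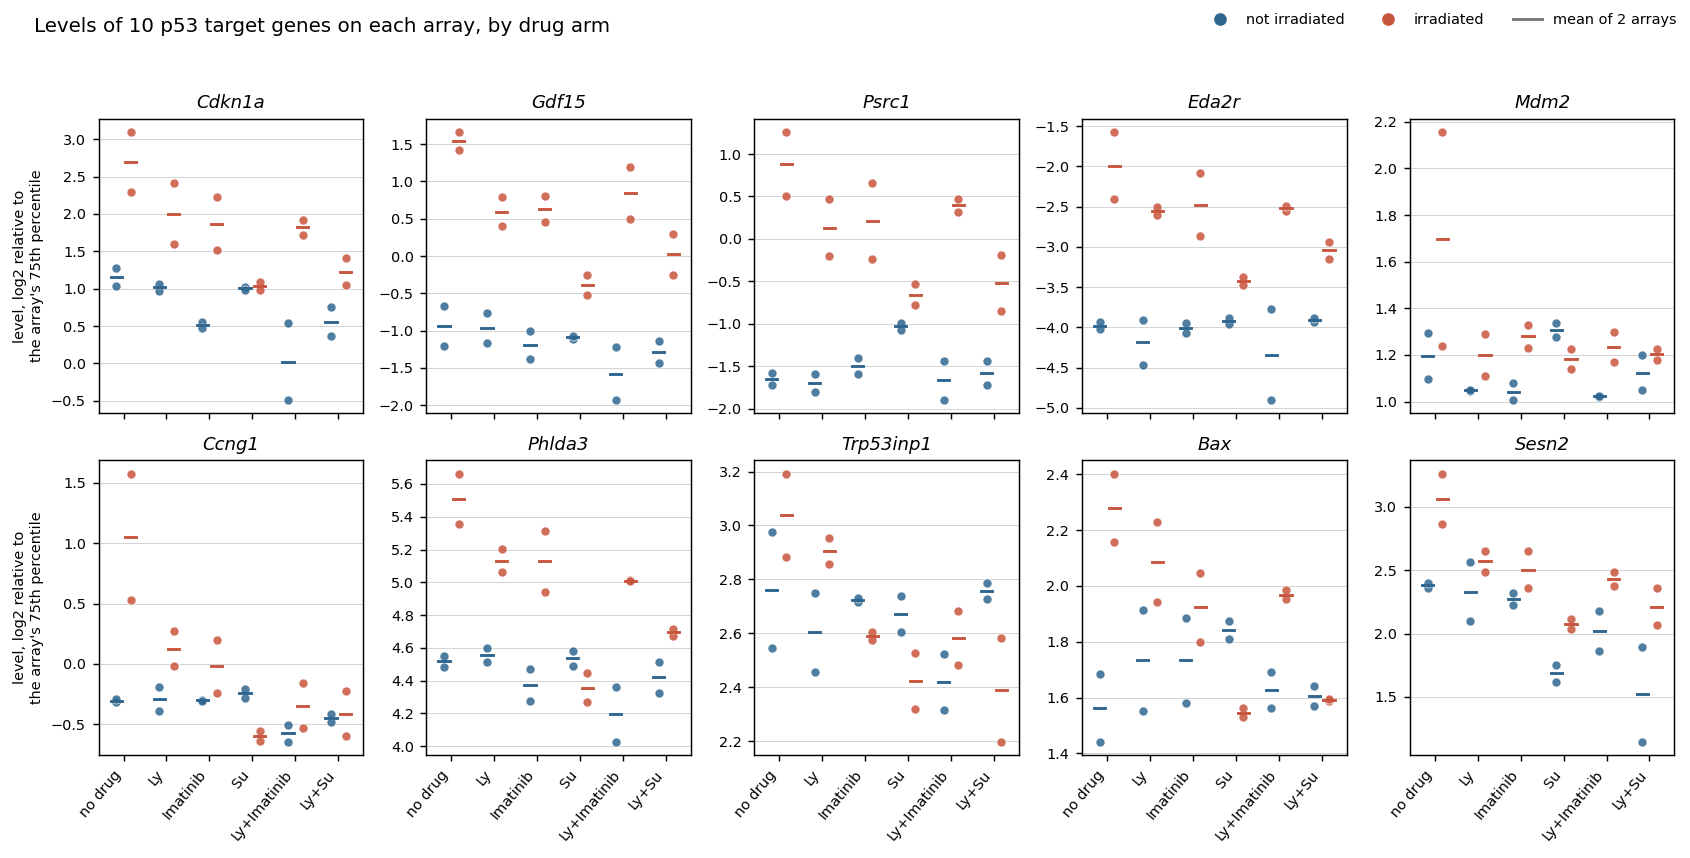
Level of each of the 10 genes on each array (log2 relative to the array's 75th percentile, each panel with its own scale), by drug arm, with blue points for unirradiated and red for irradiated lungs and short lines at the mean of 2 arrays. Gdf15, Psrc1 and Eda2r show no overlap between the 12 irradiated and 12 unirradiated arrays, and the red points fall lowest in the Su arm for most genes.

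The remaining 6 genes moved less. Phlda3 (chr1:135766085-135769134) rose by 0.54 ± 0.06 on average (1.45-fold, adjusted p = 4.06e-05): unirradiated arrays ran from 4.03 to 4.60 and irradiated ones from 4.27 to 5.66, with 10 of 12 above every unirradiated array and the 2 IR+Su arrays, at 4.44 and 4.27, below. Sesn2 (sestrin 2, chr4:132492804-132510456), a stress protein that restrains mTORC1, rose by 0.44 ± 0.09 (1.36-fold, adjusted p = 0.00259), from a range of 1.15 to 2.56 to one of 2.04 to 3.26, so the groups overlapped widely. Another Sesn2 probe gave 0.12 (adjusted p = 0.674), and with the mean of both probes the call was lost (0.28, adjusted p = 0.0513). The value of Sesn2 therefore belongs to 1 of its 2 probes.

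Ccng1 (chr11:40748552-40755309) and Bax (chr7:45461695-45466903), the pore-forming protein of the mitochondrial apoptosis pathway, rose slightly. For Ccng1 the unirradiated arrays lay between -0.64 and -0.19 and the irradiated ones between -0.64 and 1.57, with IR 1 at 1.57, IR 2 at 0.53 and 6 irradiated arrays above all others. Its averaged difference was 0.33 ± 0.11 (1.26-fold, adjusted p = 0.0279), and another probe, fitted without IR 1 because its spot was marked as an outlier there, gave 0.40 ± 0.08 (adjusted p = 0.00191). Bax changed from a range of 1.44 to 1.91 to one of 1.53 to 2.40 (0.21 ± 0.06, 1.16-fold, adjusted p = 0.0177). Neither call held for the mean of the 5 drug arms, with differences of 0.12 for Ccng1 and 0.11 for Bax. The IR and untreated arrays still entered the estimate of the spread in that fit.

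Mdm2 (chr10:117688875-117710758) and Trp53inp1 (chr4:11156441-11174379), a nuclear protein that promotes p53-dependent apoptosis and autophagy, did not pass. Mdm2 lay between 1.01 and 1.34 in unirradiated lung and between 1.11 and 1.33 on 11 of the 12 irradiated arrays, with IR 1 alone at 2.16. The averaged difference was 0.18 (95% interval 0.00095 to 0.35, adjusted p = 0.113), and quantile normalization took it past the threshold (0.21, adjusted p = 0.0359). Trp53inp1 ranged from 2.32 to 2.98 without and from 2.20 to 3.19 with irradiation, with an averaged difference of -0.00085 (interval -0.15 to 0.15, adjusted p = 0.995) whose sign turned under quantile normalization and normexp. Each of the pair had another probe, with averaged differences of 0.25 (adjusted p = 0.0641) for Mdm2 and -0.22 (adjusted p = 0.389) for Trp53inp1.

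Over the 10 genes, 8 were higher at an adjusted p under 0.05 in the averaged comparison, where 16.4% of all genes tested were called higher. Their median difference was 0.49, against 0.0067 over all genes. In 3 of the 10 the 12 irradiated arrays were all above the 12 others, which held for 0.392% of all genes, and 5 of the 10 (Cdkn1a, Gdf15, Psrc1, Eda2r and Sesn2) were higher in all 6 arms, against 10% of all genes, although Cdkn1a in the Su arm turned with normexp and median scaling. Because the slides follow the groups, slide means were compared as well: 6 genes had the 3 irradiated slides above the 3 others, against 12.6% of all genes. With only 6 slide means in the fit, limma called 0 of the 10 and 5 had an unadjusted p under 0.05 (adjusted p of 0.101 for Psrc1 and Eda2r, 0.109 for Gdf15, 0.185 for Cdkn1a). With slide as a random block (consensus correlation 0.142), 6 calls held and those of Ccng1 and Bax were lost. Leaving out each array in turn changed none of the 8 calls except that of Ccng1, which held in 18 of 24 fits.

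Irradiation without drug gave the largest differences for most of the genes. In IR against untreated lung 10 of 10 were higher (49.6% of all genes) on the probes used, also under each other scaling, and 7 passed, where 7.1% of all genes were called higher. Psrc1 rose 5.80-fold (2.54 ± 0.32, adjusted p = 0.00189), Gdf15 5.57-fold (2.48 ± 0.30, adjusted p = 0.00148) and Eda2r 3.96-fold (1.99 ± 0.33, adjusted p = 0.00577), but with normexp Eda2r gave 0.14 (adjusted p = 0.84), with the median of all genes at -0.38. Cdkn1a rose 2.90-fold (1.54 ± 0.35, adjusted p = 0.0157), Ccng1 2.56-fold (1.36 ± 0.26, adjusted p = 0.0085), Phlda3 1.99-fold (0.99 ± 0.15, adjusted p = 0.00435) and Bax 1.64-fold (0.72 ± 0.15, adjusted p = 0.0128). Sesn2 (0.68, interval 0.20 to 1.16, adjusted p = 0.0556), Mdm2 (0.50, interval 0.07 to 0.93, adjusted p = 0.0989) and Trp53inp1 (0.28, interval -0.09 to 0.64, adjusted p = 0.265) did not pass. The other probe of each of these 3 genes gave a difference below 0, at -0.37 for Sesn2 (adjusted p = 0.603), -0.29 for Mdm2 (0.402) and -1.10 for Trp53inp1 (0.109).

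Much of this rested on 1 array. Both IR arrays were above both untreated arrays in 8 of the 10 genes, a pattern that 22.5% of all genes shared. Without IR 1 the calls were 3 in place of 7: Gdf15 (2.36, adjusted p = 0.0151), Psrc1 (2.16, adjusted p = 0.0197) and Phlda3 (0.84, adjusted p = 0.0454) kept theirs. The difference of Cdkn1a was then 1.14 (adjusted p = 0.186), that of Eda2r 1.57 (0.0696), Ccng1 0.83 (0.079), Bax 0.59 (0.132) and Mdm2 0.04 (0.902). Cdkn1a and Bax also lost their calls without the second untreated array. For Ccng1 the other, brighter probe, fitted without IR 1, gave a difference of 0.86 in IR against untreated lung. The probes of Trp53inp1 parted on IR 1: on the other probe it lay at -0.46 and IR 2 at 1.52, with untreated lungs at 1.70 and 1.56, so that the mean over both probes turned the difference to -0.41.

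The number of genes called varied between the drug arms, which by itself does not test a difference between arms. In the Imatinib arm 4 genes were higher after irradiation (2.38% of all genes): Gdf15 by 1.83 (adjusted p = 0.00503), Psrc1 by 1.71 (0.0109), Eda2r by 1.53 (0.025) and Phlda3 by 0.76 (0.0153), while Cdkn1a was at 1.35 (0.0554). With Ly+Imatinib 5 were higher (2.23% of all genes): Gdf15 by 2.43 (adjusted p = 0.000746), Psrc1 by 2.06 (0.00424), Eda2r by 1.82 (0.0112), Cdkn1a by 1.80 (0.0148) and Phlda3 by 0.81 (0.0116). The Eda2r value of that arm turned to -1.19 (adjusted p = 0.0792) with normexp, and the first Ly+Imatinib array, at -4.90, is the lowest of all for that gene. Leaving out 1 array moved these counts: the Imatinib arm had 0 calls without the second Imatinib or the second IR+Imatinib array, and the Ly+Imatinib arm had 1 without the first Ly+Imatinib array.

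With Ly alone 0 of the 10 passed in limma, where 0.0196% of all genes were called higher, although 6 had an unadjusted p under 0.05. The differences in that arm were 1.83 for Psrc1 (interval 1.14 to 2.52), 1.64 for Eda2r (0.92 to 2.35), 1.56 for Gdf15 (0.92 to 2.20) and 0.98 for Cdkn1a (0.23 to 1.73), so the values lay close to those of the Imatinib arm. In the arm with Ly+Su, where 2.69% of all genes were called higher, Gdf15 alone passed (1.31, adjusted p = 0.0294), and it lost the call in each of the 4 fits that left out an array. Psrc1 was at 1.06 (interval 0.37 to 1.75), Eda2r at 0.86 (0.14 to 1.58), Sesn2 at 0.69 (0.21 to 1.17) and Cdkn1a at 0.66 (-0.08 to 1.41).

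Su gave the smallest irradiation difference of the 6 arms in 8 of the 10 genes. Over all genes 45.5% were higher after irradiation in the Su arm, and the share with their smallest difference there is not given. None of the 10 passed in limma, where 4.74% of all genes were called higher and 5.62% lower, and 1, Gdf15, had an unadjusted p under 0.05. Its levels were -1.11 and -1.07 in Su and -0.52 and -0.25 in IR+Su, a difference of 0.70 (interval 0.06 to 1.35, adjusted p = 0.144). Eda2r (0.50, interval -0.22 to 1.21), Sesn2 (0.39, -0.09 to 0.87) and Psrc1 (0.37, -0.31 to 1.06) were also on the higher side. Cdkn1a read 1.03 and 0.99 without and 1.09 and 0.98 with irradiation, a difference of 0.03 (-0.72 to 0.78) whose sign turned with normexp and median scaling. The 5 others had values below 0, from -0.12 for Mdm2 to -0.35 for Ccng1 (interval -0.91 to 0.20), of which that of Phlda3 turned with quantile normalization. Fitted on its 4 arrays alone, where limma takes the small spread of these arrays, the Su arm had 5 calls: Gdf15, Eda2r and Sesn2 higher and Ccng1 and Bax lower. In that limma fit Bax had an unadjusted p of 0.0145 and an adjusted p of 0.0489. These come this close only where a large share of all genes passes. The 5 calls are therefore not read as a result about the 10 genes.

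**Figure D2:**
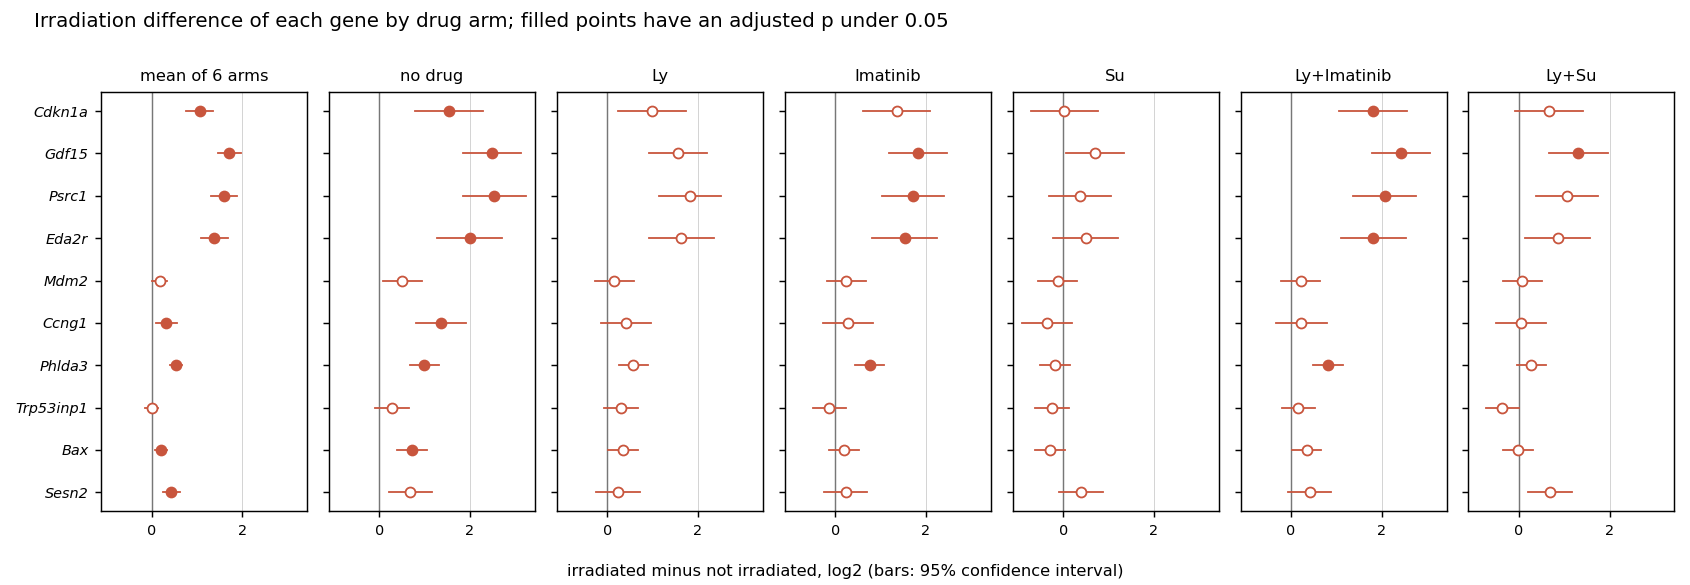
Irradiated minus unirradiated log2 difference of each gene with its 95% confidence interval, averaged over the 6 arms and in each arm; filled points have a limma adjusted p under 0.05. The points of Gdf15, Psrc1, Eda2r and Cdkn1a lie above 0 in each panel and nearest to it in the Su arm, where no point is filled.

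Whether the arms differ was tested on the differences themselves. Su and IR+Su lay on other slides than untreated and IR, so Su against no drug cannot be told apart from slide. In the Su arm the irradiation difference was lower than in the arm without drug for 10 of 10 genes (47.6% of all genes were higher), except that Eda2r turned to 0.75 with normexp and, with the mean of a gene's probes, Mdm2 to 0.20, Trp53inp1 to 0.44 and Sesn2 to 0.21, and 5 passed, where 5.6% of all genes were called lower and 4.6% higher. These were Psrc1 (-2.16 ± 0.45, adjusted p = 0.0202), Gdf15 (-1.77 ± 0.42, 0.0278), Ccng1 (-1.71 ± 0.37, 0.0207), Phlda3 (-1.17 ± 0.21, 0.0147) and Bax (-1.01 ± 0.22, 0.0209). Cdkn1a (-1.51, interval -2.57 to -0.45, 0.0615) and Eda2r (-1.49, -2.50 to -0.48, 0.0573) did not pass, nor did Mdm2 (-0.62, 0.142), Trp53inp1 (-0.53, 0.146) and Sesn2 (-0.29, 0.546). Without IR 1 the calls were 2, Ccng1 (-1.19, adjusted p = 0.0465) and Phlda3 (-1.02, adjusted p = 0.0419), and over the 8 fits that each left out an array their number ran from 0 to 9. It was 0 without either Su array or the second IR+Su array, 1 without the first IR+Su array, 2 without the second untreated array and 9 without the second IR array.

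For the other arms 0 of the 10 passed against the arm without drug. This held for Ly (0.0049% of all genes called lower), Imatinib (0.0882%), Ly+Imatinib (0.0196%) and Ly+Su (0.593%), with 2, 2, 1 and 7 of the 10 at an unadjusted p under 0.05 in limma. The values for Gdf15 were -0.92 with Ly, -0.65 with Imatinib, -0.05 with Ly+Imatinib and -1.17 with Ly+Su, and for Psrc1 -0.71, -0.83, -0.47 and -1.48 in the same order. All of these comparisons share the arm without drug, so they move together with its arrays. Only the Ly arm shared its slides, so the other comparisons cannot be told apart from slide. The mean of the 5 drug arms minus the arm without drug had 1 call (2.04% of all genes called lower), Ccng1 at -1.23 (interval -1.84 to -0.63, adjusted p = 0.0362), which held in 12 of 24 fits that left out an array and was lost without IR 1. An F test over the 5 differences called 0 of the 10 (1.07% of all genes) and 7 at an unadjusted p under 0.05, and its lowest adjusted p was that of Phlda3, 0.0648.

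Imatinib and Su lay on the same slides, both with and without irradiation, so the difference between their irradiation differences is free of slide. This comparison was added after the data had been seen. The irradiation difference with Su was lower than with Imatinib in 9 of 10 genes, by 1.34 for Psrc1, 1.32 for Cdkn1a, 1.12 for Gdf15, 1.04 for Eda2r and 0.93 for Phlda3, and none of the 10 passed in limma (0.137% of all genes), with 6 at an unadjusted p under 0.05. Over all genes 38.7% had a higher irradiation difference with Su, so most were lower as well. Among the arms with Ly the irradiation difference was again lower with Su in 9 of 10, by 1.14 for Cdkn1a, 1.11 for Gdf15, 1.01 for Psrc1, 0.96 for Eda2r and 0.54 for Phlda3, and 0 passed (0.0049% of all genes), with 5 at an unadjusted p under 0.05. There 54.3% of all genes were higher with Su. The 2 contrasts use different arrays.

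Pooled over both, Phlda3 differed by -0.74 (interval -1.06 to -0.42, adjusted p = 0.0962), Cdkn1a by -1.23 (-1.98 to -0.48, 0.30), Psrc1 by -1.17 (-1.86 to -0.48, 0.276), Gdf15 by -1.12 (-1.76 to -0.48, 0.251) and Eda2r by -0.996 (-1.71 to -0.28, 0.421), the last with a sign that turned under normexp. Here 0 of the 10 passed (0.171% of all genes) and 6 had an unadjusted p under 0.05 in limma. Between the irradiated groups alone, the 4 lungs with Su were below the 4 with Imatinib in 10 of 10 genes (Mdm2 turned under median scaling), by 0.92 for Gdf15 and 0.89 for Psrc1, with 0 called (0.0343% of all genes) and 6 at an unadjusted p under 0.05. Over all genes 44.4% were higher with Su. In each of these comparisons the test over all genes left the difference between the inhibitors unshown, with intervals for Cdkn1a, Gdf15, Psrc1 and Phlda3 that lie below 0.

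**Figure D3:**
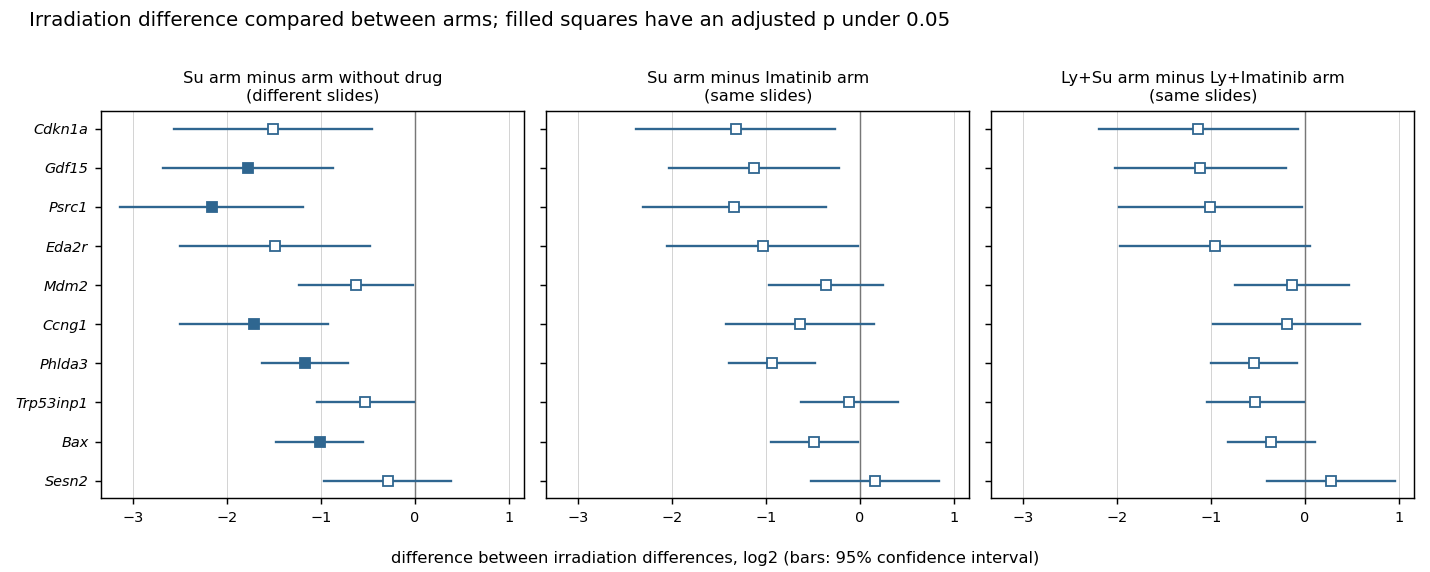
Difference between irradiation differences (log2, with 95% confidence intervals) for the Su arm minus the arm without drug, the Su arm minus the Imatinib arm and the Ly+Su arm minus the Ly+Imatinib arm; filled squares have a limma adjusted p under 0.05. Psrc1, Gdf15, Ccng1, Phlda3 and Bax are filled on the left, and in the other panels, whose arms share slides, the top genes lie between -1.34 and -0.96 with open squares.

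Among irradiated lungs, IR was the highest group in 10 of 10 genes and IR+Su the lowest in 9. The shares of all genes with these orders are not given here. Each of the following 5 comparisons uses the same 2 IR arrays. Of the drug groups only IR+Ly lay on the slide of IR, so the other comparisons cannot be told apart from slide. In IR+Su 9 of the 10 were lower than in IR (14.8% of all genes): Gdf15 3.79-fold (-1.92 ± 0.30, adjusted p = 0.00154), Cdkn1a 3.16-fold (-1.66 ± 0.35, 0.00556), Ccng1 3.14-fold (-1.65 ± 0.26, 0.00154), Psrc1 2.90-fold (-1.54 ± 0.32, 0.00547), Eda2r 2.70-fold (-1.43 ± 0.33, 0.00902, with normexp -0.52 and 0.484) and Phlda3 2.22-fold (-1.15 ± 0.15, 0.000683). Sesn2 (-0.98, 0.00827), Bax (-0.73, 0.00549) and Trp53inp1 (-0.61, 0.0196) fell as well, and Mdm2 was at -0.51 (0.0717). With the mean of a gene's probes Sesn2 was at -0.37 (0.293) and Trp53inp1 at 0.05 (0.901). Without IR 1 the calls were 3, namely Gdf15 (-1.80, adjusted p = 0.0156), Ccng1 (-1.13, 0.00951) and Phlda3 (-1.001, 0.00716).

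The same 9 genes were lower in IR+Ly+Su than in IR (11.9% of all genes), led by Gdf15 (-1.51, adjusted p = 0.00392), Cdkn1a (-1.47, 0.00929), Ccng1 (-1.47, 0.0022) and Psrc1 (-1.41, 0.00785). Eda2r, at -1.05 (0.0327), was at -0.87 (0.399) with normexp. In the 4 fits that each left out an array between 2 and 10 calls were made, 2 without the first IR+Ly+Su array and 3 without IR 1. With the mean of a gene's probes Sesn2 (-0.23, adjusted p = 0.507) and Trp53inp1 (-0.13, 0.684) lost their calls here, and Mdm2 was at 0.0094. With the inhibitor Imatinib fewer passed: Ccng1 in IR+Imatinib (-1.07, adjusted p = 0.0216, 4.91% of all genes), and Ccng1 (-1.40, 0.00485) and Phlda3 (-0.50, 0.0345) in IR+Ly+Imatinib (8.46% of all genes). Without IR 1 Ccng1 was at -0.55 (adjusted p = 0.211) in IR+Imatinib and at -0.87 (0.0277) in IR+Ly+Imatinib, and Phlda3 lost its call. In IR+Ly 0 of 10 passed in limma (0.26% of all genes) and 6 had an unadjusted p under 0.05, with Gdf15 at -0.94 (interval -1.58 to -0.30) and Ccng1 at -0.92 (-1.48 to -0.37). All 50 values of these 5 comparisons were below 0 on the probes used, also with each other scaling. Over all genes 46.3% to 53.5% were above 0 in the 5 comparisons. Median scaling, which shifted the median of all genes by up to -0.35, raised the calls in IR+Imatinib to 9 and in IR+Ly+Imatinib to 10.

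Adding Ly to Imatinib or to Su after irradiation gave no call. IR+Imatinib and IR+Su shared a slide, and IR+Ly+Imatinib and IR+Ly+Su shared another. The addition of Ly therefore cannot be told apart from slide. IR+Ly+Imatinib and IR+Imatinib differed by -0.05 for Cdkn1a (interval -0.79 to 0.70) and 0.22 for Gdf15 (-0.42 to 0.86), with 0 of the 10 called and 0 at an unadjusted p under 0.05 in limma (1.39% of all genes called either way). IR+Ly+Su and IR+Su differed by 0.41 for Gdf15 (-0.23 to 1.05) and by 0.34 for Phlda3 (0.01 to 0.66, adjusted p = 0.499), with 0 called and Phlda3 alone at an unadjusted p under 0.05 (3.26% of all genes). IR+Imatinib was above IR+Su in 10 of 10 genes, by 1.02 for Gdf15 (0.37 to 1.66, adjusted p = 0.333) and 0.77 for Phlda3 (0.45 to 1.09, 0.094), with 0 called and 7 at an unadjusted p under 0.05 (0.0784% of all genes). Over all genes 62.8% were higher in IR+Imatinib than in IR+Su. The upper ends of the intervals between IR+Ly+Su and IR+Su were 1.05 for Gdf15 and 1.10 for Eda2r.

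Without irradiation no drug moved any of the 10 past the threshold against untreated lung. Calls over all genes were 0.0049% with Ly, 0.328% with Imatinib, 2.71% with Su, 2.47% with Ly+Imatinib and 0.701% with Ly+Su, and the genes at an unadjusted p under 0.05 in limma were 0, 0, 1, 1 and 1. Sesn2 read 2.36 and 2.40 untreated, 1.75 and 1.62 with Su and 1.15 and 1.90 with Ly+Su, with differences of -0.69 (interval -1.17 to -0.21, adjusted p = 0.12) and -0.86 (-1.34 to -0.37, 0.109). Cdkn1a was lower with Ly+Imatinib by 1.13 (interval -1.88 to -0.39, adjusted p = 0.103), where 1 array lay at -0.49 and the other at 0.54. Psrc1 with Su was 0.62 above untreated lung (interval -0.07 to 1.31, adjusted p = 0.342). These 5 comparisons share the 2 untreated arrays, and the signs of several small values turned between scalings. Of the drug groups only Ly lay on the slide of untreated lung.

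The pattern over the 12 groups was compared with that of every other tested gene, by the root mean square difference between group means centred on their mean. Psrc1 and Eda2r were each other's nearest of the 10 (0.20), Psrc1 was the nearest to Gdf15 (0.23) and Eda2r to Cdkn1a (0.30), where the group means themselves spread with an SD of 0.90 for Psrc1, 0.77 for Eda2r, 0.97 for Gdf15 and 0.71 for Cdkn1a. Outside the 10, the nearest to Cdkn1a were Oas1d (0.22), Dio2 (0.25) and Cpxm2 (0.26), and to Gdf15 Tnc (0.20), Nrcam and Ecrg4 (0.26 each). For Psrc1 they were Mybpc2, Bglap and Mest (0.27 each), and for Eda2r Celf5 (0.23), Mybpc2 (0.23) and Cpxm2 (0.24). Tnc, for example, was higher by 2.89 in IR against untreated and by 0.61 in the Su arm, where Gdf15 was higher by 2.48 and 0.70.

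The other genes of the p53 pathway did not move as a block. Of a list of 65 further targets and regulators 62 were tested (Sco2, Ano3 and Atr were not), and in the averaged comparison 14 were higher and 11 lower, where 16.4% of all genes were called higher and 16.4% lower. Their median difference was 0.0087, close to the 0.0067 of all genes. The split depended on the scaling, with 11 higher and 13 lower under quantile normalization, 6 and 7 with normexp and 9 and 23 with median scaling. In IR against untreated 8 were higher and 4 lower (7.1% and 7.29% of all genes) with a median of 0.21, and without IR 1 none passed in limma, with a median of 0.06. In the Su arm 3 were higher and 3 lower (4.74% and 5.62%) with a median of -0.16.

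By role, cell cycle arrest genes had 2 higher and 0 lower of 9 in the averaged comparison, and apoptosis genes and receptors 1 and 4 of 12. Repair genes had 2 and 2 of 7, metabolic genes 0 and 2 of 9, other targets 4 and 2 of 13, and regulators 5 and 1 of 12. Some genes counted as higher were dim: Gtse1, an arrest gene, was above background on 6 arrays. Among regulators Trp63 was so on 5, Cdkn2a on 9 and Chek1 on 11. With normexp Gtse1 and Cdkn2a were each at -0.30 and not called (adjusted p = 0.494 and 0.524). Among those with 1 sign in all 6 arms, Zmat3, an RNA-binding p53 target, rose by 0.69 ± 0.09 (adjusted p = 8.26e-05). Zmat3 was at 0.25 in IR against untreated, where IR 1 lay at -0.53 and IR 2 at 0.27, and at 1.08 with Ly+Imatinib (adjusted p = 0.0148).

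Rrm2b, a subunit of ribonucleotide reductase (0.54, adjusted p = 0.000595), Chek2, a DNA damage kinase (0.51, 0.00444), and Rap2b, a small GTPase (0.43, 0.00255), also rose, but with normexp they gave 0.04, -0.17 and 0.0023. Several apoptosis and repair targets fell instead: Fas, the death receptor (-0.42, adjusted p = 0.00456), Bcl2l11, which encodes BIM (-0.40, 4.42e-05), Perp (-0.26, 0.0202), and the damage recognition genes Ddb2 (-0.33, 0.000557) and Xpc (-0.31, 0.000823). The values of Fas and Perp under normexp were -0.34 (adjusted p = 0.0523) and -0.20 (0.106). Cdkn2aip (-0.45, 0.00986) and Trp73, a relative of p53 (-0.30, 0.015) fell as well. Sesn1, the close relative of Sesn2, fell by 0.29 (0.00365, with normexp 0.0599).

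Bbc3 (PUMA) was at -0.14 (adjusted p = 0.0339, past the threshold in 10 of 24 fits that left out an array and at 0.233 with quantile normalization) and Pmaip1 (NOXA) at 0.15 (0.305), both of them apoptosis genes. The feedback genes Mdm4 and Ppm1d, an inhibitor and a phosphatase of the pathway, were at -0.13 (adjusted p = 0.0671, but -0.26 and 0.00197 with median scaling) and -0.01 (0.951). Trp53 itself rose by 0.75 ± 0.10 on average (adjusted p = 9.84e-05), with another distribution over the arms than its targets. Its level was -0.73 and -0.22 in IR and -0.32 and -0.21 in IR+Ly. It was 0.10 to 0.48 in the other 8 irradiated lungs, against -1.29 to -0.14 in unirradiated lung. IR and IR+Ly shared a slide that held no other group, so the distribution of Trp53 over the arms cannot be told apart from slide. The difference was -0.05 without drug, 0.20 with Ly, 1.01 with Imatinib (adjusted p = 0.034), 1.23 with Su (0.00747), 0.89 with Ly+Imatinib (0.052) and 1.20 with Ly+Su (0.0128), and that with Su was larger than that without drug by 1.28 (adjusted p = 0.0343).

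Genes of mitosis and S phase, which p53 signalling is known to repress, were higher after irradiation in 17 of 20 cases in the averaged comparison and lower in 0 (16.4% of all genes called each way), with a median of 0.61. With normexp 5 were called and 17 had a positive difference. Cdk1, the mitotic kinase, rose by 1.29 (adjusted p = 0.000387), Ccnb1, its cyclin, by 1.14 (0.000721) and Top2a, topoisomerase II alpha, by 1.12 (4.97e-05), and these calls were lost with normexp (0.50, 0.21 and 0.26). Aurkb was above background on 9 arrays and gives no fold. In the Su arm, where the 10 p53 targets had a median of -0.05, these 20 genes had a median of 0.70 with 1 called, Top2a (1.61, where 4.74% of all genes were called higher). In IR against untreated the median was 0.78 with 2 called (7.1% of all genes), and without IR 1 it was 0.18 with 0 called.

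Targets of ATF4, the integrated stress response factor that can also drive Gdf15 and Sesn2, showed 3 higher and 2 lower of 13 tested. Their median was -0.03, and 16.4% of all genes were called each way. Chac1, a glutathione-degrading enzyme, fell by 0.51 (adjusted p = 8.31e-05), Psat1, of serine synthesis, rose by 0.40 (0.00623, with normexp 0.243), and Atf4 rose by 0.20 (0.0276, with median scaling 0.439). Slc7a11, also counted as higher, was above background on 5 arrays only and was at -0.35 (adjusted p = 0.406) with normexp. Of 9 other cell cycle inhibitors and senescence genes 3 rose and 3 fell, where 16.4% of all genes were called each way. Igfbp3, a binding protein of insulin-like growth factors, fell by 1.03 (adjusted p = 0.0212, with normexp 0.0614). Cdkn1c (p57) fell by 0.35 (0.0103, with normexp 0.0867) and Cdkn1b (p27) by 0.31 (0.00605). Lmnb1, the lamin whose loss marks senescent cells, rose by 0.57 on average (0.0109), but mainly in the arms with Su. Its difference was 1.94 with Su and 1.78 with Ly+Su. It was 0.09 without drug, -0.57 with Ly, -0.22 with Imatinib and 0.41 with Ly+Imatinib. Unirradiated levels were -1.21 and -1.32 in Su, -0.93 and -1.30 in Ly+Su, and -0.32 to 1.68 in the other groups. Irradiated levels ran from 0.29 to 1.16.

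**Figure D4:**
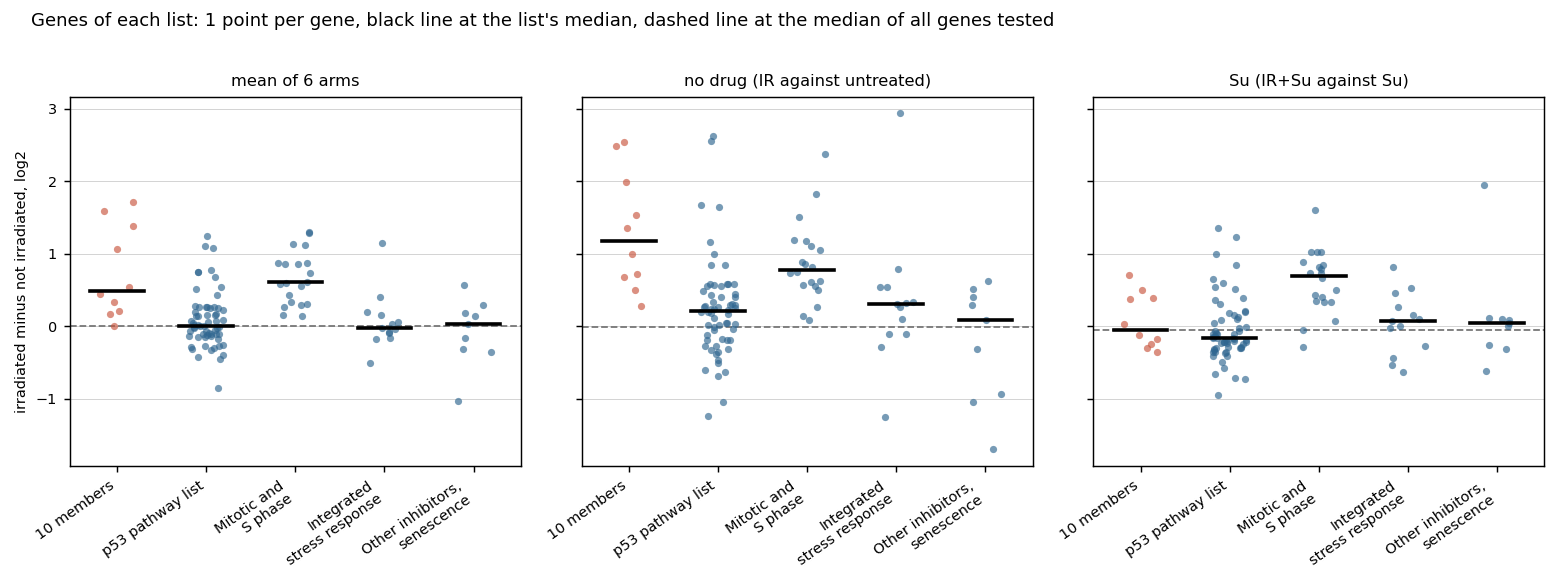
Irradiated minus unirradiated log2 difference of every tested gene in each list (points), with the list's median as a black line and the median of all genes as a dashed line, averaged over the 6 arms, without drug and in the Su arm; genes that are above background on few arrays are included. The 10 genes described here have medians of 0.49, 1.17 and -0.05, and the mitotic and S phase genes 0.61, 0.78 and 0.70.

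Markers of other cell types moved along with some of these results. Over all genes, 16.4% were called higher on average, 7.1% higher in IR against untreated, and 14.8% lower in IR+Su than in IR. Of 10 macrophage genes 6 were higher in the averaged comparison and 8 in IR against untreated (3 without IR 1), and 8 were lower in IR+Su than in IR. The log2 of their summed level ran from 6.31 to 7.58 on the unirradiated and from 6.77 to 8.32 on the irradiated arrays. Its group means were 7.28 in untreated, 8.20 in IR, 6.33 in Su and 6.85 in IR+Su. Of 4 mast cell genes 4 were higher on average (1 with normexp) and 3 in IR against untreated (0 without IR 1), 4 were lower in IR+Su than in IR, and 2 had a lower irradiation difference with Su than without drug. Their summed level ran from -1.99 to -0.85 and from -1.07 to 4.58, with 2 of the 4 above background on all arrays. Lung epithelium had 0 of 9 higher and 2 lower, with a median summed level of 10.2 without and 10.1 with irradiation, and of the thymocyte genes Rag1, Rag2 and Ptcra did not pass the filter. Higher and lower calls in the averaged comparison were 1 and 0 of 3 fibroblast genes (Col1a1, by 0.97), 1 and 1 of 4 endothelial, 0 and 1 of 4 T cell, 0 and 0 of 3 B cell, 0 and 0 of 3 cardiac, 1 and 0 of 3 skeletal muscle and 0 and 1 of 2 erythroid genes. In IR against untreated both erythroid genes were lower (7.29% of all genes), with a median of -1.92, and of -1.69 without IR 1. In IR+Su against IR, for which the share of all genes called higher is not given, 3 of 3 B cell genes (median 1.69) and 2 of 4 endothelial genes were higher. There 1 of 3 fibroblast genes and 2 of 9 epithelial genes were lower. The part of these cells in the values of the p53 targets was not tested.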

How the data were processed

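Total RNA of mouse lung was measured on 24 one-colour (Cy3) Agilent arrays, 2 biological replicates in each of 12 groups. The authors deposited probe intensities from Feature Extraction 9.1.3.1, which per the file headers had background and spatial trend removed. A surrogate stood in for the lowest intensities, and arrays were not scaled to each other. The deposited table of the series holds the same intensities times a constant per array (ratio 0.995 to 1.005).

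From these, log2 of the processed intensity minus each array's 75th percentile was taken, spots of a probe were averaged, and the brightest usable probe stood for a gene. For Ccng1 a brighter probe was not usable, because its spot was marked as an outlier on IR 1. Of 41174 probes 619 were not usable, and genes not well above background in both arrays of any group were left out. limma 3.58.1 (R 4.3.3, lmFit and eBayes over all 12 groups, 12 residual degrees of freedom) tested 20409 genes with Benjamini-Hochberg adjustment. Each ± is the SE of a difference from this fit, and intervals are 95%. Tables and plots used Python 3.11.15. The number of arrays limits the precision: on simulated data this fit recovered 63% of 100 genes changed by 0.5 and 91% changed by 1.0 (log2) in the averaged comparison, and 10% and 44% in IR against untreated. In the simulation only 100 genes of each size among 20409 were changed and slides did not differ. In the data far more genes were called, so these rates need not hold for them.

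Genes named are the 10 targets, the genes of the p53 pathway list called with 1 sign in all 6 arms plus 8 fixed ones, the top 4 of each related list, and the 3 genes nearest in pattern, except 1 item that is not reported here. Some dim genes of the p53 pathway list and some cell type markers are named as well. The members, lists and comparisons were chosen with earlier results of these data known. Symbols and positions come from RefSeq (GRCm38.p6), with 22951 probes matched by accession, 6659 by symbol and 3109 by synonym, and 8455 left with the name in the files. Groups and replicate numbers were taken from the sample titles. Alternatives were the normalization, background correction, scaling, filter, probe choice, slide, replicate number, groups fitted alone, variance model and each array left out. Samples with the same replicate number did not deviate together (66 pairs of groups, median correlation 0.036, range -0.202 to 0.25), so the numbers were not taken as pairs.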

Additional observations from a re-analysis of the deposited data

Results flagged for a closer look

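The irradiation difference differed between arms by a test of the difference itself in 6 cases. With Su it was lower than without drug for Psrc1 (-2.16), Gdf15 (-1.77), Ccng1 (-1.71), Phlda3 (-1.17) and Bax (-1.01), each log2 values with a limma adjusted p under 0.05. Averaged over the 5 drug arms it was lower than without drug for Ccng1 (-1.23). Of the drug arms only Ly shared slides with the arm without drug, so drug and slide cannot be told apart in these cases. All 6 share the IR and untreated arrays, and without IR 1 only those of Ccng1 (-1.19) and Phlda3 (-1.02) with Su kept their call.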

How the results depend on the processing

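Counts are of the 10 genes past the threshold. Slide means in place of arrays took the averaged count from 8 to 0. With each comparison's groups fitted alone, which leaves 2 residual degrees of freedom for a pair of groups, the count was 0 in IR against untreated, the Imatinib, Ly+Imatinib and Ly+Su arms, Su minus no drug, and IR+Imatinib, IR+Su, IR+Ly+Imatinib and IR+Ly+Su against IR. The count was 5 in the Su arm, where a large share of all genes passed too. With normexp it was 1 in the Imatinib arm and 0 in the Ly+Su arm, the mean of 5 drug arms, IR+Imatinib against IR and IR+Ly+Imatinib against IR. With median scaling it was 2 in the Imatinib arm, 1 in the Su arm, 0 in the Ly+Su arm, 1 for Ly+Su minus no drug, 4 for the mean of 5 drug arms, 9 in IR+Imatinib and 10 in IR+Ly+Imatinib against IR and 1 in the F test. Quantile normalization gave 1 in IR+Ly+Imatinib against IR. Without a filter on background it was 2 in the Ly+Su arm, 0 for the mean of 5 drug arms and 1 in IR+Ly+Imatinib against IR. With genes above background on all arrays, and likewise with an intensity trend, it was 3 for the mean of 5 drug arms and 2 in IR+Imatinib against IR, and the trend gave 1 in the F test. A replicate block gave 2 for the mean of 5 drug arms and 2 in IR+Imatinib against IR, and otherwise counts within 1.5 times of those without it. The causes were not tested.

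Leaving out 1 array gave averaged counts of 7 to 9, and 3 to 9 in IR against untreated, 0 to 5 in the Imatinib arm, 1 to 5 with Ly+Imatinib, 0 to 1 with Ly+Su and 0 to 0 in the Ly and Su arms. Against the arm without drug the counts were 0 to 2 with Ly, 0 to 3 with Imatinib, 0 to 9 with Su, 0 to 2 with Ly+Imatinib, 0 to 7 with Ly+Su and 0 to 6 for the mean of 5. Against IR they were 0 to 6 in IR+Ly, 0 to 9 in IR+Imatinib, 3 to 10 in IR+Su, 1 to 6 in IR+Ly+Imatinib and 2 to 10 in IR+Ly+Su. Counts were 0 to 1 in Ly+Su against untreated, IR+Imatinib against IR+Su and both the plain and the pooled Su minus Imatinib, 0 to 2 between irradiated Su and Imatinib groups and 0 to 6 in the F test.

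Signs turned for small or dim values. Averaged Trp53inp1 was 0.063 with quantile normalization, 0.088 with normexp, 0.15 without the Su arms, 0.050 without the combinations and -0.037 to 0.035 without single arrays. Eda2r with normexp was 0.75 for Su minus no drug and 0.69 for the pooled Su minus Imatinib, where Sesn2 was -0.0074. With the mean of a gene's probes Trp53inp1 was -0.41 in IR against untreated and 0.048 in IR+Su against IR, Mdm2 was 0.0094 in IR+Ly+Su against IR, and for Su minus no drug Mdm2 was 0.20, Trp53inp1 0.44 and Sesn2 0.21. The slide block could be fitted for the averaged comparison alone. Dim genes, Eda2r first, depend most on the background correction, and no setting separates irradiation from slide.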
